A study of Mus musculus with 64 samples.

Results

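The mRNAs of 8 proteins that bind AU-rich elements were measured in mouse embryonic stem cells in which 1 subunit of RNA polymerase II (Pol II) was degraded. The genes were taken by symbol, and each matched 1 of the 55335 gene rows of the count table: Zfp36, Zfp36l1, Zfp36l2, Khsrp, Hnrnpd, Elavl1, Tia1 and Tial1. All 8 passed the filter on low counts. The cells were of the V6.5 line, and 12 lines, RPB1 to RPB12, each carried an auxin-inducible degron on the subunit that names the line. The auxin indole-3-acetic acid (IAA) triggers destruction of the tagged protein through the receptor OsTir1. Each of these lines and wild-type (WT) cells was sequenced after 12 h of 500 µM IAA and untreated, with 2 libraries per group (52 libraries in 26 groups). RPB1, RPB3 and RPB6 were also sequenced after 1 h of IAA and at 0 h, again with 2 libraries per group (12 libraries in 6 groups). Per the labels' protocol, every group had been given 12 h of doxycycline at 2 µg/ml to induce OsTir1, and the medium held the GSK3 inhibitor CHIR99021 at 3 µM and the MEK inhibitor PD0325901 at 0.5 µM. The series text gives another doxycycline dose. The labels do not say whether WT cells carried OsTir1, whether a line is 1 clone or whether replicates came from separate cultures. The p-values therefore cover only the differences among libraries, which may be technical. The degron acts on the protein, so the mRNA of a tagged subunit does not check a label.

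AU-rich elements are short stretches in the 3' untranslated region (3' UTR) of many unstable mRNAs, such as those of immediate-early transcription factors, cytokines and cell cycle regulators. Proteins of the ZFP36 family bind them and recruit the CCR4-NOT complex, which shortens the poly(A) tail. KHSRP recruits decay enzymes as well, HNRNPD (AUF1) promotes decay or stability depending on the mRNA and the isoform, and ELAVL1 (HuR) stabilises most of its targets. TIA1 and TIAL1 (TIAR) repress translation of AU-rich mRNAs and form stress granules. Some of these proteins bind their own mRNAs or each other's.

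Sites for such control may lie in these mRNAs themselves. The nonamer TTATTTATT, a core site of ZFP36 proteins, was therefore searched on the sense strand of 1 annotated 3' UTR per gene (GENCODE M21, mm10). It is shown here in capitals within 29 bases, written 5′ to 3′ in DNA letters, for the 4 members that hold it. Elavl1 holds 8 copies, overlapping ones counted apart, in 4 windows, of which the first is printed, where the capitals span several copies. The windows lie on the minus strand at chr7:28376951-28376979 for Zfp36, chr12:80108167-80108195 for Zfp36l1, chr17:84184914-84184942 for Zfp36l2 and chr8:4285788-4285816 for Elavl1.
Zfp36: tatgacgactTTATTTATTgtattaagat
Zfp36l1: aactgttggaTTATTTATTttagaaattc
Zfp36l2: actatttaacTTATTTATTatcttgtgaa
Elavl1: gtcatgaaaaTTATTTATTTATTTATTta
The 3 Zfp36 genes hold 1 copy each, in 3' UTRs of 774 bases (Zfp36), 1835 bases (Zfp36l1) and 1822 bases (Zfp36l2). Of all 20623 annotated 3' UTRs, 7.16% hold a copy. Among those of like length (20% shorter to 25% longer than the member's), the share was 4.27% for Zfp36, 9.95% for Zfp36l1, 9.84% for Zfp36l2 and 18.4% for Elavl1, whose 3' UTR has 4218 bases. The letters do not occur in the chosen 3' UTRs of Khsrp, Hnrnpd, Tia1 and Tial1, which span 1642, 5429, 3038 and 2756 bases. A match is a description of the sequence and was not tested for binding.

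The 52 libraries of the 12 h experiment held 3399838 to 7164928 counts each and the 12 of the 1 h experiment 8598431 to 13281252, and the lowest count of a member in a library was 12 and 31 in these experiments. Values in CPM (counts scaled to an equal library total) below are scaled by TMM, which takes most genes as unchanged, and are shares of a library: fewer cells of a type and less RNA per cell cannot be told apart, and the Drosophila spike-in was not analysed here. The choice of scale moved 3 lines most. At 12 h in RPB2 all genes tested had a median log2 fold change of -0.19 with TMM, -1.03 with total counts and -2.32 when libraries were scaled to 13 mitochondrial mRNAs. In RPB6 these values were -0.13, -0.75 and -2.08, and in RPB8 they were 0.04, -0.11 and -1.43. Mitochondrial mRNAs took 3.44% and 3.25% of counts in RPB2 with IAA, against 1.24% and 1.37% untreated. In RPB3 with IAA replicate 1 held 0.534% and replicate 2 held 1.72%, so that scale is uncertain there. Markers of embryonic stem cells summed to 3646 to 10640 CPM in IAA libraries and 5477 to 7883 CPM in untreated ones, with all 12 above 1 CPM in at least 1 library. Fibroblast markers summed to 5.51 to 30.7 CPM with IAA and 5.39 to 22.7 CPM untreated, with 2 of 9 at 0 in every library. Trophectoderm markers summed to 69.0 to 187 CPM with IAA and 94.1 to 157 CPM untreated, neuroectoderm markers to 50.9 to 149 CPM with IAA and 45.7 to 101 CPM untreated, and primitive endoderm markers to 1.69 to 23.3 CPM with IAA and 3.84 to 23.4 CPM untreated. These sums over all lines hide a shift within lines. Of the 12 stem cell markers, 9 fell and 0 rose in RPB1 (median log2 fold change -1.19), 10 fell and 2 rose in RPB5 (-1.10) and in RPB8 (-1.13), and 9 fell and 3 rose in RPB2 (-1.38) and in RPB6 (-1.04), while 4 fell and 0 rose in WT (-0.15). In RPB7 9 fell and 0 rose (-0.52), and in RPB3 7 fell and 1 rose (-0.33). Of the 4 neuroectoderm markers tested, 3 rose and 0 fell in RPB1 and in RPB7. The part of these markers in the results was not tested.

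The 8 mRNAs did not move as a group. After 12 h of IAA, 20 of the 96 responses in degron lines (8 genes in 12 lines) were higher and 45 were lower by edgeR's quasi-likelihood test with Benjamini-Hochberg adjustment, and 31 did not pass. When scaled to mitochondrial mRNAs, 8 were higher and 42 lower. With TMM, Zfp36 gave 9 of the 20 rises and no fall, while Hnrnpd, Tia1, Elavl1 and Zfp36l1 gave 30 of the 45 falls. In RPB1, 2 members rose and 5 fell, where 35.8% of the 17928 genes tested rose and 30.5% fell. In RPB2, 4 rose and 4 fell (27.9% and 34% of all genes), and in RPB3 1 rose and 5 fell (24.4% and 23.3%). In RPB5, 3 rose and 5 fell (31% and 28.1%), in RPB6 3 rose and 3 fell (27.3% and 33.4%), and in RPB7 1 rose and 6 fell (20.2% and 21.1%). In RPB8, 4 rose and 3 fell (31.5% and 30.2%), and in RPB9 1 rose and 7 fell (16.8% and 18%). In RPB10, 0 rose and 4 fell (18.2% and 21.2%), and in RPB11 1 rose and 1 fell (10.6% and 13.1%). Few genes of any kind were called in the last 3 lines by edgeR: 1 member fell in each of RPB4 (1.13% of all genes higher, 0.948% lower), RPB12 (2.14% and 2.65%) and WT (0.803% and 0.842%), and none rose. That member was Zfp36l1 in all 3 lines. DESeq2 also called no rise of a member in RPB4, RPB10, RPB12 and WT, and at an unadjusted p under 0.05 the only rise was that of Zfp36 in RPB12. The share of all called genes that were higher depended on the scale: it was 45.1% with TMM, 21.2% with total counts and 0.636% on the mitochondrial scale in RPB2, and 45%, 23.6% and 0.264% in RPB6. For RPB8 the shares were 51%, 44.1% and 7.83%, for RPB1 54%, 63.9% and 32.9%, and for RPB3 51.1%, 67.4% and 95.7%.

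**Figure D1:**
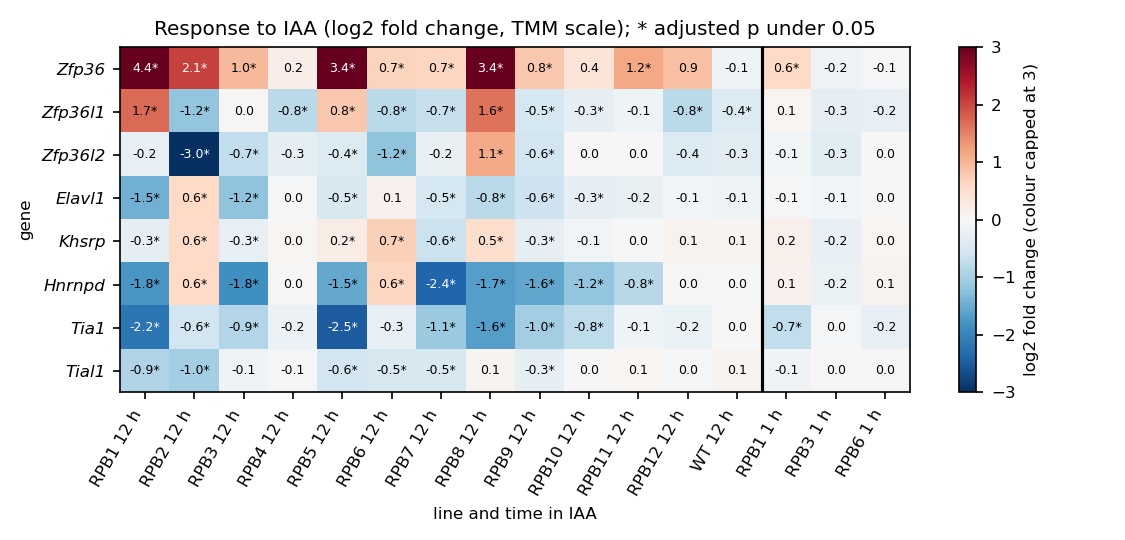
Log2 fold change of the 8 mRNAs (rows) in each line after 12 h of IAA and, right of the vertical line, after 1 h; red is higher and blue lower with IAA, and an asterisk marks an adjusted p under 0.05. Zfp36 is red in every degron line at 12 h, from 0.20 in RPB4 to 4.38 in RPB1, while Hnrnpd is blue in 8 lines and red in RPB2 and RPB6. With total counts Elavl1, Khsrp and Hnrnpd point down in RPB2, and on the mitochondrial scale Zfp36, Elavl1, Khsrp and Hnrnpd point down in RPB2 and RPB6.

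Zfp36 (ENSMUSG00000044786, chr7:28376784-28380253) encodes tristetraprolin, the immediate-early member of its family and the one with the lowest mRNA level here. In RPB1 it had 80.2 and 78.4 CPM with IAA, against 4.0 and 3.57 CPM untreated. Both IAA libraries lie far above both untreated ones, with a log2 fold change of 4.38 ± 0.21 (SE, adjusted p 2.52e-22). In RPB5 it had 48.6 and 48.5 CPM with IAA, against 4.11 and 5.02 CPM untreated (log2 fold change 3.39 ± 0.21). In RPB8 it had 52.9 and 56.3 CPM with IAA, against 6.12 and 4.51 CPM untreated (3.35 ± 0.21). These 3 rises, of 20.8-fold, 10.5-fold and 10.2-fold, were called on each of the 4 scales used. In RPB2 it had 27.1 and 15.8 CPM with IAA, against 5.68 and 4.73 CPM untreated, a log2 fold change of 2.05 ± 0.26 (adjusted p 2.05e-09) that became -0.17 on the mitochondrial scale. The IAA libraries of RPB2 differ from each other more than in any of the other 3 lines.

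Smaller rises of Zfp36 followed in 5 lines. In RPB11 it had 8.35 and 8.60 CPM with IAA, against 2.86 and 4.52 CPM untreated (log2 fold change 1.17 ± 0.27). In RPB3 it had 13.4 and 16.2 CPM with IAA, against 8.48 and 6.68 CPM untreated (0.96 ± 0.21), and in RPB7 19.1 and 18.7 CPM with IAA, against 11.5 and 12.53 CPM untreated (0.65 ± 0.19). The groups do not overlap in these lines, though RPB7 did not pass on the mitochondrial scale (0.24). The calls in RPB9 (0.81 ± 0.24) and RPB6 (0.67 ± 0.24) rested on single libraries: without untreated replicate 2 of RPB9 the change was 0.66 and without IAA replicate 2 it was 0.75, and in RPB6 it was 0.39 without untreated replicate 2, 0.67 without IAA replicate 1 and 0.58 without IAA replicate 2, none of which passed. In RPB6 the rise also shrank to 0.05 with total counts and turned to -1.28 on the mitochondrial scale. RPB12 (0.90 ± 0.32, adjusted p 0.109), RPB10 (0.41 ± 0.24) and RPB4 (0.20 ± 0.33) did not pass. In WT, Zfp36 had 6.58 and 5.36 CPM with IAA, against 7.79 and 5.15 CPM untreated, and the groups overlap (-0.11 ± 0.27, adjusted p 0.927). In the order of responses, RPB1 was above RPB5, RPB8 above RPB2 and RPB2 above RPB11 by the test of the difference between lines (adjusted p under the threshold of 0.05). RPB5 and RPB8 did not pass that test, nor did any neighbours from RPB11 down to WT. Pairs of degron lines were compared with TMM only. On the mitochondrial scale the change in RPB2 was -0.17, while the rise in RPB11 kept its call, so the place of RPB2 depends on the scale.

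Zfp36l1 (ENSMUSG00000021127, chr12:80107754-80113013), which encodes a relative that acts through the same deadenylase, went up in some lines and down in others. In RPB1 it had 360 and 380 CPM with IAA, against 116 and 113 CPM untreated (log2 fold change 1.69 ± 0.09, adjusted p 1.98e-20). In RPB8 it had 379 and 381 CPM with IAA, against 116 and 128 CPM untreated (1.64 ± 0.09), and in RPB5 198 and 190 CPM with IAA, against 112 and 109 CPM untreated (0.81 ± 0.09). On the mitochondrial scale the changes were 0.13 in RPB8 and 0.28 in RPB5 and did not pass. The lines where it rose are the 3 in which Zfp36 rose most. It fell in RPB2, with 59.5 and 55.9 CPM with IAA, against 136 and 127 CPM untreated (-1.19 ± 0.11, adjusted p 1.04e-12). It also fell in RPB12 (-0.82 ± 0.09), RPB6 (-0.81 ± 0.11), RPB4 (-0.81 ± 0.10), RPB7 (-0.69 ± 0.10) and RPB9 (-0.52 ± 0.10). The falls in RPB4 (-0.68), RPB12 (-0.78) and RPB9 (-0.67) did not pass on the mitochondrial scale. The fall in RPB10 (-0.29 ± 0.11) did not pass when any 1 of its 4 libraries was left out (-0.31 to -0.25). WT moved the same way, with 55.2 and 56.5 CPM with IAA, against 73.6 and 75.5 CPM untreated (-0.42 ± 0.11, adjusted p 0.0246). That call too was lost without any 1 of the 4 WT libraries (-0.42 to -0.38). A lincRNA gene, Gm26669, overlaps 1672 bases of Zfp36l1 exons on the other strand, and the labels do not say whether counting used the strand, so part of these counts may come from it.

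Zfp36l2 (ENSMUSG00000045817, chr17:84183931-84187947), the family's member known for its role in oocyte and blood stem cell development in mice, had the deepest fall of any member. In RPB2 it had 5.71 and 6.99 CPM with IAA, against 59.9 and 42.4 CPM untreated, a log2 fold change of -2.99 ± 0.24 (adjusted p 5.98e-15). In RPB6 it had 9.27 and 15.5 CPM with IAA, against 28.8 and 28.2 CPM untreated (-1.20 ± 0.21). In RPB8 it moved the other way, with 63.2 and 73.5 CPM with IAA, against 33.0 and 29.4 CPM untreated (1.13 ± 0.15, adjusted p 8.20e-09), though it came to -0.39 on the mitochondrial scale. It also fell in RPB3 (-0.73 ± 0.15, 0.04 on the mitochondrial scale) and RPB9 (-0.59 ± 0.14, -0.73 and not called on the mitochondrial scale). The call in RPB5 (-0.42 ± 0.15) was lost without untreated replicate 2 (-0.23), IAA replicate 1 (-0.44) or IAA replicate 2 (-0.40). In RPB1, where both relatives rose, it had 47.5 and 39.7 CPM with IAA, against 53.1 and 49.7 CPM untreated, and did not pass (-0.24 ± 0.14, adjusted p 0.134). WT moved down as well, with 31.1 and 35.2 CPM with IAA, against 44.1 and 39.1 CPM untreated (-0.33), and did not pass. Once the WT response was subtracted, the falls in RPB3, RPB5 and RPB9 were not called.

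**Figure D2:**
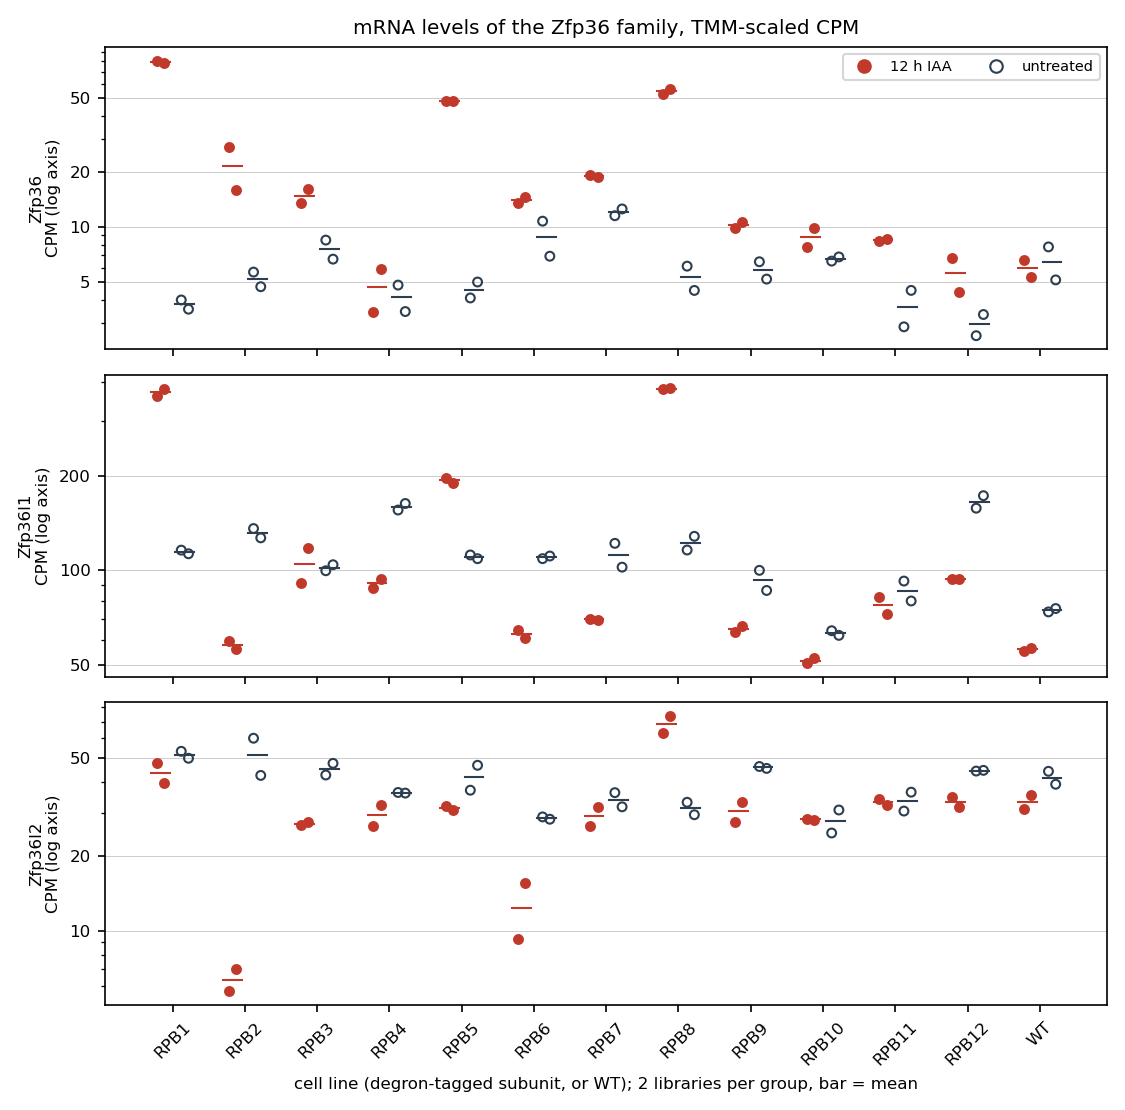
CPM of Zfp36, Zfp36l1 and Zfp36l2 on log axes in each library, with IAA (filled, left) and untreated (open, right) for each line; bars are means of 2 libraries. Zfp36 reaches 48.5 to 80.2 CPM with IAA in RPB1, RPB5 and RPB8, against 3.57 to 6.12 CPM untreated, and Zfp36l2 falls to 5.71 and 6.99 CPM in RPB2.

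The make-up of the family changed in a way that no scaling of libraries can alter, since shares within a library were compared. Per base of exon, Zfp36 made up 14.7% and 14.0% of the family's mRNA in RPB1 with IAA, against 2.10% and 1.94% untreated. In RPB2 it made up 26.7% and 18.1% with IAA, against 2.55% and 2.44% untreated. In each of the 12 degron lines both IAA libraries held a larger Zfp36 share than both untreated ones (2.62% to 26.7% with IAA and 1.12% to 7.71% untreated over all lines). A share also grows when a relative falls. In RPB4 the Zfp36 levels overlapped, with 3.44 and 5.92 CPM with IAA, against 4.83 and 3.46 CPM untreated. There Zfp36l1 fell (log2 fold change -0.81). In WT the share was 6.50% and 5.08% with IAA and 5.70% and 3.93% untreated, and the groups overlap. Zfp36l1 stayed the main family mRNA, with 61.9% to 79.3% of it with IAA and 66.0% to 83.0% untreated. These shares are a description, with no test and no background over other genes. Their size depends on the exon lengths used, which merge all annotated exons of a gene.

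Hnrnpd (ENSMUSG00000000568, chr5:99955935-99978938) fell in 8 lines, as often as any member, and rose in 2. In RPB7 it had 39.2 and 41.3 CPM with IAA, against 206 and 216 CPM untreated (log2 fold change -2.39 ± 0.10, adjusted p 1.32e-23). In RPB3 it had 83.5 and 79.2 CPM with IAA, against 285 and 298 CPM untreated (-1.84 ± 0.09), and in RPB1 94.1 and 100.1 CPM with IAA, against 324 and 331 CPM untreated (-1.75 ± 0.09). The IAA groups sit at 0.191 to 0.297 of their untreated groups in these 3 lines. It also fell in RPB8 (-1.66 ± 0.10), RPB9 (-1.55 ± 0.09), RPB5 (-1.53 ± 0.09), RPB10 (-1.19 ± 0.09) and RPB11 (-0.82 ± 0.09), and each of the 8 falls kept its call when any 1 library was left out. The fall in RPB11 did not pass on the mitochondrial scale (-0.73). In RPB2 it had 627 and 565 CPM with IAA, against 391 and 391 CPM untreated, a rise of 0.61 ± 0.09 (adjusted p 3.47e-08) that turned to -0.25 with total counts and -1.61 on the mitochondrial scale. In RPB6 it had 428 and 468 CPM with IAA, against 287 and 285 CPM untreated, a rise of 0.65 ± 0.09 that came to 0.02 with total counts and -1.31 on the mitochondrial scale. In RPB4 and RPB12 the change was 0.04 ± 0.09 and did not pass, and in WT it had 181 and 189 CPM with IAA, against 191 and 184 CPM untreated. In the order of responses RPB7 stood below RPB3, RPB5 below RPB10, RPB10 below RPB11 and RPB11 below WT by the test of the difference. RPB3, RPB1, RPB8, RPB9 and RPB5 were neighbours that did not pass it. Pairs of degron lines were compared with TMM only, and the difference of RPB11 from WT was not called on the mitochondrial scale.

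Khsrp (ENSMUSG00000007670, chr17:57021051-57031522), which encodes a KH-domain protein that recruits the exosome, had 4 falls and 4 rises within a narrow range, from -0.65 to 0.72 on the log2 scale. In RPB7 it had 182 and 207 CPM with IAA, against 317 and 292 CPM untreated (-0.65 ± 0.09, adjusted p 5.72e-08). In RPB6 it had 432 and 433 CPM with IAA, against 258 and 268 CPM untreated (0.72 ± 0.09), and in RPB2 415 and 377 CPM with IAA, against 285 and 252 CPM untreated (0.56 ± 0.09). The rise in RPB6 came to 0.09 with total counts and -1.25 on the mitochondrial scale, and that in RPB2 to -0.29 and -1.66. In RPB8 it had 257 and 270 CPM with IAA, against 187 and 177 CPM untreated (0.53 ± 0.09, -0.98 on the mitochondrial scale). The smaller calls did not pass with single libraries left out: RPB1 (-0.26, and -0.20 without untreated replicate 2 or -0.21 without IAA replicate 1), RPB3 (-0.25, and -0.20 without untreated replicate 2 or -0.25 without IAA replicate 1) and RPB9 (-0.26, and -0.22 without untreated replicate 2 or -0.25 without IAA replicate 1). RPB5 (0.23) was 0.11 without untreated replicate 1, 0.24 without IAA replicate 1 and 0.22 without IAA replicate 2. Scaling moved them further: RPB1 came to -0.11 with RLE and -0.07 with total counts, RPB3 to -0.07 and RPB9 to -0.17 with total counts, and none of these passed. On the mitochondrial scale RPB3 came to 0.57 and RPB5 to -0.32, and RPB9 (-0.40) did not pass.

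Elavl1 (ENSMUSG00000040028, chr8:4285382-4325413), whose protein HuR stabilises AU-rich mRNAs, fell in 7 lines and rose in 1. In RPB1 it had 96.9 and 78.6 CPM with IAA, against 244 and 235 CPM untreated (log2 fold change -1.45 ± 0.10, adjusted p 1.34e-17). In RPB3 it had 77.1 and 87.2 CPM with IAA, against 187 and 191 CPM untreated (-1.20 ± 0.10), and this fall shrank to -0.43 and did not pass on the mitochondrial scale. Smaller falls followed in RPB8 (-0.80 ± 0.10), RPB9 (-0.61 ± 0.09, -0.76 and not called on the mitochondrial scale), RPB7 (-0.53 ± 0.09) and RPB5 (-0.48 ± 0.09). The fall in RPB10 (-0.27 ± 0.09) was -0.15 without untreated replicate 2 and -0.19 without IAA replicate 2, and did not pass in either case. In RPB2 it had 262 and 284 CPM with IAA, against 168 and 193 CPM untreated, a rise of 0.60 ± 0.09 (adjusted p 3.08e-07) that turned to -0.26 with total counts and -1.61 on the mitochondrial scale. RPB6 did not pass (0.13 ± 0.09), and there the value turned to -0.49 with total counts. WT had 199 and 192 CPM with IAA, against 210 and 223 CPM untreated (-0.15 ± 0.09, adjusted p 0.529).

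**Figure D3:**
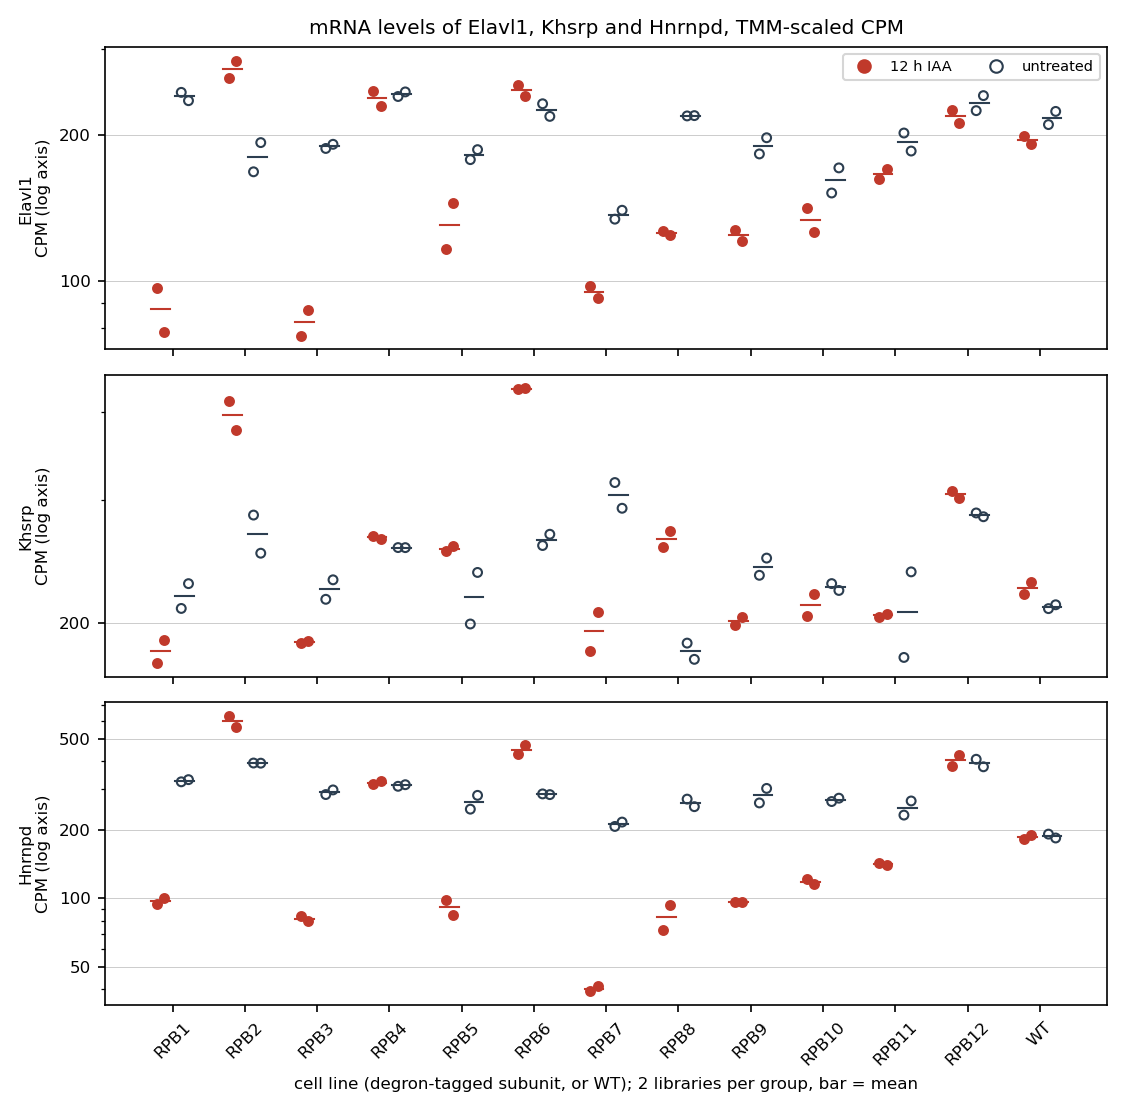
CPM of Elavl1, Khsrp and Hnrnpd on log axes in each library, with IAA (filled, left) and untreated (open, right) for each line; bars are means of 2 libraries. Hnrnpd falls to 39.2 and 41.3 CPM in RPB7 with IAA, against 206 and 216 CPM untreated, and stands above untreated in RPB2 and RPB6 on this scale, an order that turns round in RPB2 with total counts and in both lines on the mitochondrial scale.

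Tia1 (ENSMUSG00000071337, chr6:86404219-86433405), which encodes a translational repressor of stress granules, fell in 8 lines and rose in none. In RPB5 it had 16.1 and 17.6 CPM with IAA, against 105 and 85.9 CPM untreated (log2 fold change -2.50 ± 0.15, adjusted p 3.13e-19). In RPB1 it had 17.4 and 13.1 CPM with IAA, against 64.1 and 76.4 CPM untreated (-2.20 ± 0.15), and in RPB8 24.3 and 18.9 CPM with IAA, against 61.7 and 74.0 CPM untreated (-1.64 ± 0.15). These are the 3 lines in which Zfp36 rose most. At least 9 of the 12 stem cell markers fell in each of them, and 9 fell in each of RPB2, RPB6 and RPB7. A link of Tia1 to these markers was not tested. Tia1 also fell in RPB7 (-1.12 ± 0.12), RPB9 (-1.03 ± 0.13), RPB3 (-0.87 ± 0.12), RPB10 (-0.76 ± 0.12) and RPB2 (-0.56 ± 0.14). In RPB6 it did not pass (-0.25). The call in RPB3 was lost on the mitochondrial scale (-0.10), and that in RPB2 with relative-log-expression (RLE) size factors (-0.32, adjusted p 0.0515). WT had 76.2 and 80.2 CPM with IAA, against 78.0 and 78.5 CPM untreated, and the groups overlap (0.00 ± 0.12).

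Tial1 (ENSMUSG00000030846, chr7:128439777-128461717), the paralogue of Tia1, had the narrowest range of the 8 genes, from -1.02 to 0.08. It fell in 6 lines and rose in none. In RPB2 it had 51.4 and 47.1 CPM with IAA, against 96.0 and 103 CPM untreated (-1.02 ± 0.10, adjusted p 3.63e-12), and in RPB1 63.3 and 58.7 CPM with IAA, against 114 and 115 CPM untreated (-0.90 ± 0.09). It also fell in RPB5 (-0.58 ± 0.09), RPB7 (-0.48 ± 0.08), RPB6 (-0.47 ± 0.09) and RPB9 (-0.30 ± 0.08, -0.44 and not called on the mitochondrial scale). In RPB8, where Tia1 fell, it had 110 and 98.9 CPM with IAA, against 91.8 and 106 CPM untreated, and the groups overlap (0.08 ± 0.09, -1.42 on the mitochondrial scale). Of the mRNA of both genes per base of exon, Tia1 made up 8.84% and 7.72% in RPB8 with IAA, against 22.8% and 23.5% untreated. In RPB5 it made up 8.54% and 9.66% with IAA, against 29.2% and 25.8% untreated. Over the 12 degron lines both IAA libraries were below both untreated ones in 8 lines and above them in 2, RPB2 and RPB6, whatever the scale.

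**Figure D4:**
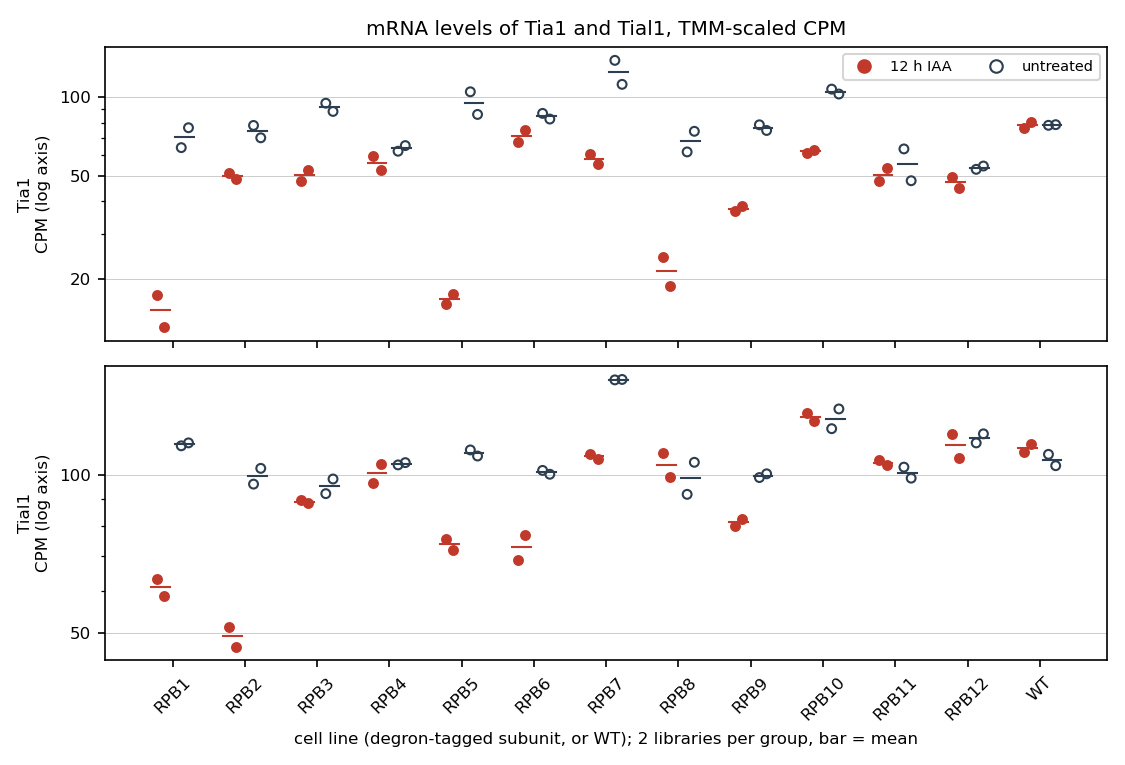
CPM of Tia1 and Tial1 on log axes in each library, with IAA (filled, left) and untreated (open, right) for each line; bars are means of 2 libraries. Tia1 falls to 13.1 to 24.3 CPM with IAA in RPB1, RPB5 and RPB8, against 61.7 to 105 CPM untreated, while Tial1 overlaps its untreated group in RPB8.

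Per kilobase of exon, the untreated order over the 26 untreated libraries was Khsrp (median 54.4 CPM per kb), Hnrnpd (38.6), Zfp36l1 (36.8), Elavl1 (19.2), Tial1 (15.2), Zfp36l2 (10.8), Tia1 (4.95) and Zfp36 (1.49). With IAA the medians over 26 libraries were 52 for Khsrp, 16.1 for Hnrnpd, 25.9 for Zfp36l1, 13.8 for Elavl1, 14.1 for Tial1, 8.88 for Zfp36l2, 3.19 for Tia1 and 3.89 for Zfp36. The lengths are those of all annotated exons of a gene merged, not of the mRNA expressed: 15750 bases for Tia1, 6903 for Tial1 and 3470 for Zfp36. The order of the genes, and the size of the shares given above, therefore depend on the annotation. These medians pool 13 lines whose responses went opposite ways. Group means of Hnrnpd with IAA were still above those of Zfp36l1 in WT, RPB2, RPB4, RPB6 and RPB12, and in RPB2 they were 81.1 CPM per kb for Hnrnpd and 19.3 for Zfp36l1.

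The WT response was then subtracted in the same fit. With TMM 53 of 96 values were called, 17 higher and 36 lower; of these 53 calls, 41 were kept with total counts, 27 on the mitochondrial scale and 25 on all scales used. By line, members called in either direction were 7 of 8 in RPB1 (49.1% of all genes), 8 in RPB2 (55.5%), 6 in RPB3 (28.2%), 0 in RPB4 (0.284%), 6 in RPB5 (42.3%), 5 in RPB6 (54.1%) and 5 in RPB7 (25.2%). They were 7 in RPB8 (49.5%), 5 in RPB9 (18%), 2 in RPB10 (25.6%), 2 in RPB11 (11.3%) and 0 in RPB12 (0.53%). At an unadjusted p under 0.05, 1 member (Zfp36l1) differed in RPB4 and 2 (Zfp36, Zfp36l1) in RPB12, and DESeq2 called none in these 2 lines. Not among the 53 were the falls of Zfp36l1 in RPB4, RPB7, RPB9, RPB10 and RPB12 and those of Zfp36l2 in RPB3, RPB5 and RPB9. Nor were the rises of Zfp36 in RPB6, RPB7 and RPB9, the fall of Elavl1 in RPB10 or the rise of Khsrp in RPB5. Zfp36 exceeded WT by 4.49 ± 0.37 in RPB1, 3.50 ± 0.36 in RPB5, 3.46 ± 0.35 in RPB8 and 2.17 ± 0.38 in RPB2, and Hnrnpd fell below WT by 2.37 ± 0.14 in RPB7. All 12 differences share the 4 WT libraries. In 12 of the 53 the call was lost without 1 of the 8 libraries: Khsrp in RPB1 (-0.41 to -0.30 over these fits), RPB3 (-0.40 to -0.30) and RPB9 (-0.41 to -0.31), Zfp36 in RPB3 (0.72 to 1.31) and RPB11 (0.95 to 1.67), Zfp36l1 in RPB3 (0.22 to 0.61) and RPB6 (-0.50 to -0.38), Zfp36l2 in RPB6 (-1.35 to -0.62), Elavl1 in RPB5 (-0.50 to -0.18), RPB7 (-0.44 to -0.34) and RPB9 (-0.54 to -0.41), and Tial1 in RPB9 (-0.43 to -0.36). The 5 differences quoted above kept theirs in these fits, but that of Zfp36 in RPB2 came to 0.04 and did not pass on the mitochondrial scale.

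At 1 h, RPB1 gave the only member calls of the 24 responses tested. Tia1 fell there to 81.2 and 78.1 CPM at 1 h, against 143 and 122 CPM at 0 h (log2 fold change -0.73 ± 0.09, adjusted p 4.07e-05), and this call held without any 1 library. Zfp36 had 12.0 and 10.3 CPM at 1 h, against 5.62 and 9.27 CPM at 0 h (0.59 ± 0.21, adjusted p 0.0447). The change of Zfp36 was 0.27 without 0 h replicate 1, 0.48 without 1 h replicate 1 and 0.68 without 1 h replicate 2, and none of these passed. In RPB1, 24.9% of the 15658 genes tested were called at 1 h, so 2 of 8 members is near the background. In RPB3 (0.358% of all genes) and RPB6 (1.54%) none of the 8 members was called at 1 h by edgeR or DESeq2. At an unadjusted p under 0.05, 4 members were lower in RPB3 and 2 in RPB6. Tia1 had 118 and 107 CPM at 1 h and 119 and 112 CPM at 0 h in RPB3, and 122 and 142 CPM at 1 h and 157 and 154 CPM at 0 h in RPB6. Hnrnpd, which fell by 1.75 in RPB1 at 12 h, had 228 and 214 CPM at 1 h, against 199 and 206 CPM at 0 h (0.13 ± 0.07, adjusted p 0.235).

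The tagged lines already differed from WT before IAA. In untreated cells 41 of 96 member levels were called against WT, 31 higher and 10 lower, all against the same 2 WT libraries. On the mitochondrial scale 13 were called, and 11 of the 41 calls were kept. Hnrnpd was higher in 11 of 12 lines and Zfp36l1 in 10, of which 3 (RPB2, RPB10, RPB12) and 2 (RPB7, RPB12) were kept on the mitochondrial scale. Hnrnpd had 391 and 391 CPM in untreated RPB2 and 406 and 377 CPM in untreated RPB12, against 191 and 184 CPM in untreated WT (both 1.06 ± 0.09). Zfp36l1 had 158 and 173 CPM in untreated RPB12, against 73.6 and 75.5 CPM in untreated WT (1.15 ± 0.10). Elavl1 was lower in RPB7, with 134 and 140 CPM untreated, against 210 and 223 CPM in untreated WT (-0.66 ± 0.09), a call not kept on the mitochondrial scale. By line, members called were 2 in RPB1 (21.2% of all genes), 4 in RPB2 (40.8%), 2 in RPB3 (29.9%), 3 in RPB4 (33.1%), 3 in RPB5 (17.9%) and 4 in RPB6 (24.5%). They were 6 in RPB7 (53.7%), 3 in RPB8 (20%), 2 in RPB9 (15.7%), 5 in RPB10 (31.8%), 2 in RPB11 (22.8%) and 5 in RPB12 (40.2%). In 12 of the 41 the call was lost without 1 of the 4 libraries: Elavl1 in RPB2 (-0.37 to -0.17) and RPB5 (-0.29 to -0.17), Khsrp in RPB2 (0.25 to 0.44), RPB4 (0.28 to 0.33) and RPB6 (0.29 to 0.35), Zfp36l2 in RPB6 (-0.60 to -0.43), RPB8 (-0.50 to -0.31) and RPB10 (-0.73 to -0.41), Zfp36l1 in RPB9 (0.21 to 0.42), Tial1 in RPB10 (0.21 to 0.35), Tia1 in RPB11 (-0.71 to -0.30) and Zfp36 in RPB12 (-1.34 to -0.75). The tag and the clone cannot be told apart here.

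Because the responses went in different directions, their likeness over the 12 lines was described. No test was made, since the lines were scaled together and their libraries differed in depth. The 3 pairs of members with the largest absolute Pearson r are given, picked by that value. Other pairs were weaker, as weak as -0.0154 for Zfp36l1 and Tial1. Zfp36 and Zfp36l1 gave a Pearson r of 0.839 (Spearman rho 0.559), Zfp36 and Tia1 -0.82 (-0.517), and Elavl1 and Hnrnpd 0.819 (0.909). In RPB1, RPB5 and RPB8 all 3 of Zfp36, Zfp36l1 and Tia1 had their most extreme values in these directions. Over the means of the 26 groups and 9248 genes with 10 CPM or more, the mRNAs most like Zfp36 were Fos (r 0.946), Qpctl (0.923) and Junb (0.918). Those most like Zfp36l1 included Enc1 (0.843) and D16Ertd472e (0.834), and those most like Zfp36l2 were Rpp38 (0.916), Utp3 (0.908) and Mcm9 (0.904). For Elavl1 they were Mbtps1 (0.96), Nucks1 (0.927) and Tubb5 (0.926), and for Hnrnpd Sars2 (0.96), Dis3 (0.949) and Thg1l (0.939). Dis3 encodes a catalytic subunit of the exosome. For Khsrp they were U2af2 (0.907), Slc25a38 (0.907) and Upf1 (0.895), for Tia1 Luc7l2 (0.918), Snx10 (0.905) and Plscr3 (0.899), and for Tial1 Pnn (0.911), Smim20 (0.901) and Tmem170 (0.896).

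The mRNAs that these proteins are known to act on also split by line. Of 58 genes listed as carrying AU-rich elements, the 3 Zfp36 genes among them, 52 were tested at 12 h. In RPB8, 35 rose and 7 fell (median log2 fold change 1.63, against 0.04 for all genes), in RPB1 33 rose and 13 fell (1.23, against 0.09), and in RPB5 30 rose and 12 fell (0.60, against 0.08). In RPB2, 10 rose and 32 fell (-1.62, against -0.19), and in RPB6 9 rose and 34 fell (-1.18, against -0.13). The values of this list, and of the nonamer groups below, hold for the TMM scale and were not computed on another. On the mitochondrial scale the median of all genes was -1.43 in RPB8, -0.47 in RPB1 and -0.46 in RPB5. Fos, an immediate-early transcription factor, rose in 10 lines, by 7.44 in RPB8 and 6.79 in RPB1 on the log2 scale. Plk2, a polo-like kinase, rose in 11 lines with a median of 2.3, and Egr1, another immediate-early factor, in 7 with a median of 2.25. Vegfa, the vascular growth factor, fell in 10 lines (median -1.28, -3.69 in RPB2), and Plaur, the urokinase receptor, in 10 (median -1.88). Dusp6, a phosphatase that acts on ERK, fell in 9 lines and rose in 2, with -3.98 in RPB2 and 1.67 in RPB8. In WT 1 of the 52 rose and 3 fell.

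Genes grouped by the nonamer alone did not follow that list in every line. Of genes whose 3' UTR holds it, 1011 were tested at 12 h, and their median log2 fold change was -0.81 in both RPB2 and RPB6, against -0.20 and -0.15 for all genes with a 3' UTR. In RPB1 it was -0.09 and in RPB8 -0.23, where the list above had 1.23 and 1.63. Of these 1011 genes 811 have a 3' UTR over 1000 bases, against 6791 of all 13964 genes with a 3' UTR. Among 3' UTRs over 1000 bases the median was -0.92 with the nonamer and -0.61 for all in RPB2, and -0.88 and -0.51 in RPB6. In RPB3 it was 0.05 with the nonamer and 0.08 for all, against 0.01 for 3' UTRs of any length. The part of length was not tested. For RPB1 these medians over 1000 bases were -0.12 and -0.08, and in RPB8 -0.30 and -0.20. At 1 h in RPB1, 22.4% of 966 genes with the nonamer fell, against 13.1% of 13176 genes with a 3' UTR. Among those over 1000 bases 25.4% fell with the nonamer and 18.7% of all. No test was made of these differences.

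**Figure D5:**
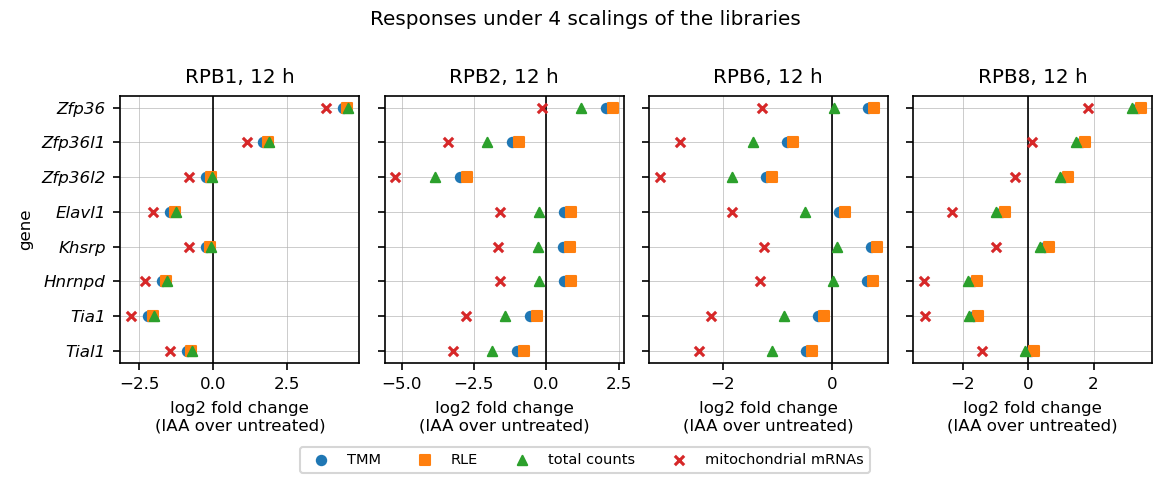
Log2 fold change of the 8 mRNAs after 12 h of IAA in RPB1, RPB2, RPB6 and RPB8 (panels, with their own horizontal axes) under 4 scalings of the libraries. Circles (TMM) and squares (RLE) lie close together, while the mitochondrial scale (crosses) lies further left in each panel and puts Zfp36 at -0.17 in RPB2 and -1.28 in RPB6.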

How the data were processed

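Per the labels, RNA-seq was run on mouse embryonic stem cells with 10% Drosophila S2 cells added. Per the submitters' processing notes the tools included cutadapt 1.18, Bowtie2, STAR, SAMtools, featureCounts, deepTools and DESeq2, with builds mm10 and dm6, and the authors deposited raw counts per gene. The strand setting, the annotation and the handling of multi-mapped reads are not stated, and poly(A) libraries are named for the 12 h set only. Of the table's columns, 4 match no sample and were not used.

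Genes were named by identifier from GENCODE M21, for 55154 of 55335. Counts of the 52 and the 12 libraries were fitted apart with edgeR 4.0.16 (R 4.3.3): filterByExpr, TMM, 1 coefficient per group, the quasi-likelihood test, and Benjamini-Hochberg adjustment over all 17928 and 15658 genes, with a threshold of 0.05. The biological coefficient of variation, taken as the square root of the median trended dispersion, was 8.29% and 7.46%. The scripts were tested on simulated counts. Genes outside the 8 were named by rule: the 4 highest and 4 lowest by median change in each list among genes averaging 5 CPM or more and called in 6 or more lines, and the 3 genes with the highest Pearson r to a member, of which 1 is not reported here. Alternatives were RLE, total counts and mitochondrial mRNAs as scale, DESeq2 1.42.0, other filters, a fold threshold, fits of only the groups compared, a replicate block and leaving out each library, which held the trend of dispersion of the full fit. The members and the lists were chosen with earlier results of these data known.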

Additional observations from a re-analysis of the deposited data

Results flagged for a closer look

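The response to IAA of each gene differed between lines by the test of the difference within the edgeR fit (Benjamini-Hochberg adjustment). The number of the 12 degron lines whose 12 h response differed from that of WT was 10 for Hnrnpd, 8 for Tia1, 7 for Elavl1, 7 for Khsrp, 6 for Zfp36, 6 for Zfp36l1, 6 for Tial1 and 3 for Zfp36l2.

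Of the 8 genes, 5 were called in opposite directions in different lines, and the difference between the extreme lines passed the test in each. The response of Zfp36l2 in RPB8 minus that in RPB2 was 4.12 ± 0.29 (SE, log2, adjusted p 1.17e-16). That of Hnrnpd in RPB6 minus RPB7 was 3.04 ± 0.13, and that of Zfp36l1 in RPB1 minus RPB2 was 2.88 ± 0.15. For Elavl1 in RPB2 minus RPB1 it was 2.05 ± 0.13, and for Khsrp in RPB6 minus RPB7 it was 1.37 ± 0.13. With total counts or on the mitochondrial scale not all of these opposite calls remain. The only rise of Elavl1 (RPB2) came to -0.26 and the rises of Hnrnpd to -0.25 (RPB2) and 0.02 (RPB6) with total counts. On the mitochondrial scale the rise of Zfp36l2 in RPB8 came to -0.39, and those of Khsrp and Hnrnpd in RPB2 and RPB6 also turned to falls. The extreme lines were picked by their values, so these differences are at the upper end by choice. RPB2, RPB6 and RPB8 are the lines in which the mitochondrial share of counts rose most. Groups of 2 libraries do not allow a search for outlying samples.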

How the results depend on the processing

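Of the 65 member calls at 12 h in degron lines, 63 were kept with RLE, 53 with total counts, 37 on the mitochondrial scale and 34 on all of these, and 56 in every fit without 1 library. On the mitochondrial scale there were 8 rises in place of 20, and 13 calls in untreated lines against WT in place of 41. These numbers include calls made on that scale only, such as the rise of Tial1 in RPB3 (0.72). Of the 41 untreated calls 11 were kept. The 1 call in WT and the 2 at 1 h became 0 and 1. With total counts the WT and 1 h calls also became 0 and 1. With a change of 0.5 or more required, the WT call became 0 and the untreated calls 26. With no filter the WT call became 0, and with DESeq2 the 1 h calls became 1. Without 1 library at a time the WT calls were 0 in each fit and the 1 h calls 1 to 4. The cause was not tested.

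Directions turned round as follows, in log2 fold change. With total counts in RPB2, Elavl1 came to -0.26, Khsrp to -0.29 and Hnrnpd to -0.25 (minus WT -0.13, -0.41 and -0.25), and in RPB6 Elavl1 to -0.49 (minus WT -0.36, Khsrp -0.021). On the mitochondrial scale in RPB2, Zfp36 came to -0.17, Elavl1 to -1.61, Khsrp to -1.66 and Hnrnpd to -1.61 (minus WT -1.37, -1.66 and -1.50 for the last 3). In RPB6, Zfp36 came to -1.28, Elavl1 to -1.83, Khsrp to -1.25 and Hnrnpd to -1.31 (minus WT -1.59, -1.25 and -1.20 for the last 3). In RPB8, Zfp36l2 came to -0.39, Khsrp to -0.98 (minus WT -0.98) and Tial1 to -1.42 (minus WT -1.40). In RPB3, Zfp36l2 came to 0.038, Khsrp to 0.57 (minus WT 0.57) and Tial1 to 0.72, in RPB5 Khsrp to -0.32, and in untreated RPB4 against WT Khsrp to -0.17.

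The replicate numbers do not pair the samples: over 16 pairs the correlation of same-numbered deviations was -0.148 to 0.0551. With a replicate block 20 rises, 45 falls, 1 WT call and 2 calls at 1 h were found, and 49 calls minus WT against 53. Crossing the numbers of RPB7 left each of its 8 member results, called or not called, as it was. With 2 libraries per group small changes of Zfp36, counted 12 to 86 times per untreated library, were below what could be detected.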

Other observations

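Genes that act with these proteins split by line as well, described here by counts and medians of the log2 fold change at 12 h on the TMM scale, with no test of a list. Of 30 kinases, phosphatases and partners of ZFP36 and ELAVL1 proteins, 18 rose and 8 fell in RPB2 (median 0.94, against -0.19 for all genes) and 19 rose and 7 fell in RPB6 (0.94, against -0.13). In RPB1, 2 rose and 19 fell (-0.45, against 0.09). Mapkapk2, the kinase MK2 that phosphorylates tristetraprolin, rose in 7 of the 12 lines and fell in none, and Ppp2ca, a catalytic subunit of the phosphatase PP2A, fell in 9 and rose in none.

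Of 40 CCR4-NOT, decapping and exosome factors, 23 fell and 4 rose in RPB1 (median -0.47), where 30.5% of all genes fell and 35.8% rose (median 0.09). In RPB2 23 fell and 9 rose (-0.62), against 34% and 27.9% of all genes (-0.19), and in RPB8 22 fell and 12 rose (-0.36), against 30.2% and 31.5% of all genes (0.04). Cnot1, the scaffold of CCR4-NOT that ZFP36 proteins contact, fell in 10 lines with a median of -0.84, and Dhx36 fell in 9 with a median of -0.88. Btg2 and Tob1, which recruit the deadenylase, rose in 8 lines each, with medians of 1.85 and 0.91. Btg2 fell in 1 line and Tob1 in 2.

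Of 25 stress granule proteins, 17 fell and 3 rose in RPB1 (-0.61), where 30.5% of all genes fell and 35.8% rose (0.09). In RPB3 19 fell and 2 rose (-0.54), against 23.3% and 24.4% of all genes (0.06). In RPB6 15 rose and 6 fell (0.50), where 27.3% of all genes rose and 33.4% fell (-0.13). Among 39 other proteins that bind AU-rich or GU-rich elements, 24 fell and 10 rose in RPB1 (-0.70). In RPB2 21 of them rose and 12 fell (0.51), where 27.9% of all genes rose and 34% fell (-0.19). The rises in RPB2 and RPB6 hold for the TMM scale: with total counts the median of all genes was -1.03 in RPB2 and -0.75 in RPB6, and on the mitochondrial scale -2.32 and -2.08. Rbm38 rose in 9 lines (median 1.13), and Hnrnpdl (-0.995), a relative of Hnrnpd, fell in 9. Of the neuronal relatives of Elavl1, Elavl3 rose in 5 lines and fell in 2 and Elavl2 rose in 5 and fell in 3. Zfp36l3 and Elavl4 averaged under 5 CPM.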
